A study of Mus musculus with 67 samples.

Results

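RNA of blastocysts whose embryos had stood under light as 2-cell embryos was compared with RNA of control blastocysts. The libraries were chosen by their titles, and 9 of the 67 libraries of the series were of blastocysts. The light group had 6 of them, numbered 13, 15, 23, 24, 26 and 29, and the control group 3, numbered 1, 2 and 3. The labels give the strain C57BL/6 for both groups, and the methods describe embryos made by fertilization in vitro and cultured without maternal tissue. The 3 control libraries differed from the light libraries, however. Y-linked RNA was at or near 0 in each control library and present in each light library. The same held for the RNA of several imprinted genes expressed from the paternal copy, among them Peg10, Sfmbt2 and Peg3. Y-linked genes were also at or near 0 in the control morulae compared below. Neither the labels nor the methods give the sex of an embryo, and no value used here checks how an individual embryo arose. Light exposure and a difference in the sex or origin of the embryos cannot be told apart in these 2 groups. This bears on each difference between the groups below, autosomal genes and lineage markers included, and not on imprinted, X-linked and Y-linked genes alone. The light was that of a full-spectrum bulb at high intensity, and culture in the dark followed it. The control group of the study's lighting experiments was kept dark. The labels number an embryo for each library, whereas the methods describe a single cell, picked by hand after an embryo was dissociated with trypsin, as the start of each SMART-seq2 library. A library therefore stands for a cell of unknown place in the blastocyst, and neither the lineage of that cell nor the parents of its embryo are given. Each library was taken as 1 replicate. The p-values are too small if libraries of a group came from the same embryo.

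The blastocyst is the first stage of the mouse embryo with distinct tissues. An outer epithelium, the trophectoderm, pumps fluid into the cavity and later forms placenta. The inner cell mass inside it divides into the epiblast, which forms the fetus and carries pluripotency factors such as Nanog, and the primitive endoderm, which lays down basement membrane and forms yolk sac. Imprinted genes are expressed mainly from the copy of 1 parent, and several of those expressed from the paternal copy act in the trophoblast. Female embryos silence an X chromosome through the noncoding RNA Xist, and the paternal X is the silenced copy in the early embryo and the trophectoderm.

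Total reads per library lay between 4383153 and 8172450, of which 73.8% to 89.3% fell on CT010467.1 and Gm42418, which overlap at a ribosomal RNA locus on chromosome 17. The reads on the other genes, 690022 to 2144868 per library, set the precision of every value below, and since amplified reads carry no molecular identifiers, counting intervals cover counting error only. The share on the rRNA locus was 76.2% ± 4.14 (SD, n = 3) in control and 84.4% ± 4.12 (SD, n = 6) in light blastocysts (exact permutation test, two-sided, p = 0.0357), a difference that missed 0.05 in 7 of the 9 sets with a library left out (p = 0.0714 to 0.107). After thinning to 690022 reads, 13229 ± 308 (SD, n = 3) genes had a read in control and 12274 ± 473 (SD, n = 6) in light libraries (exact permutation test, two-sided, p = 0.0238), with p = 0.0714 without control 3 and 0.0536 without light 26. The smallest p that 3 against 6 libraries allow is 0.0119. A value below is the reads of a gene divided by the median ratio of its library over 8180 genes, called a normalized value, and a fold change is on the scale of log2(normalized value + 1), light minus control. Reads were not divided by gene length, so levels are compared between libraries and not between genes.

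The control libraries differed among themselves in lineage markers, and 2 of them stood apart from the rest before any comparison. The summed normalized value of 21 trophectoderm markers was 655 in control 1, 2670 in control 2 and 6336 in control 3, and 4921 to 7072 in the light libraries. Control 3 lay within the light group in this sum, while controls 1 and 2 lay below every light library. The 20 markers of inner cell mass and epiblast summed to 3241, 1863 and 1077 in controls 1, 2 and 3, and to 998 to 1606 in light libraries. Controls 1 and 2 were thus the highest of the 9 in this sum, and control 3 was again inside the range of the light group. The sums lean on abundant genes. Dppa5a alone read 620 in control 3 and 457 to 1075 in light libraries. Nanog, by contrast, read 42.1 in control 3, above every light library (at most 20.7). The 24 markers of primitive endoderm measured summed to 1186 to 1938 in control and 970 to 2246 in light libraries, ranges that overlap, although Gata4, a factor that specifies this lineage, read 63.4 in control 1 against 0.206 and 3.71 in the other controls and at most 3.16 in light libraries. Sox17, another factor of this lineage, read 23.2 in control 1 and 0 in controls 2 and 3. Other members of the list did not follow. Sox7 and Amn read 0 in the 3 controls, and Dab2, described below, was lowest in control 1. Markers of cumulus cells (8 measured) summed to at most 8.68 and those of sperm (8 measured) to at most 11.1 in any library, with the sperm protamines Prm1 and Prm2 at 0 in all 9. The lineage of the picked cells and the light exposure cannot be told apart in 3 control cells of unequal marker levels, and named genes whose call was lost without control 1, 2 or 3 are pointed out below.

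**Figure D1:**
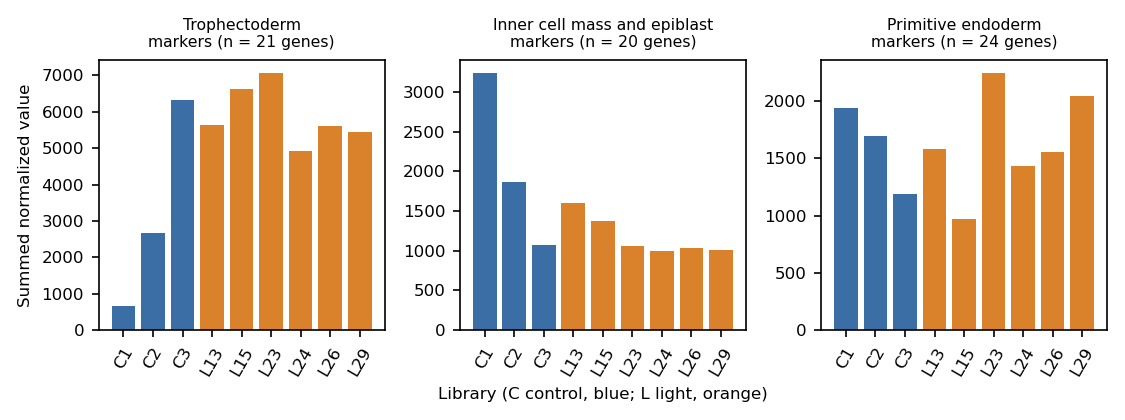
Summed normalized value of the marker genes of each lineage, by library (C control, L light, with their numbers). Controls 1 and 2 had the lowest trophectoderm sums and the highest inner cell mass sums of the 9 libraries, and control 3 lay with the light libraries in both.

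Of 12743 genes tested by limma, 279 (2.19%) were called, with an adjusted p under 0.05 and at least a 2-fold difference. Calls below are those of limma unless another tool is named. Light was higher for 127 of them (0.997% of genes tested) and lower for 152 (1.19%). For 250 of the 279 no light library lay within the control range, which held for 1009 of all genes tested (7.92%), 384 with light higher (3.01%) and 625 with light lower (4.90%). The balance of directions depended on the scale. The median fold change of all genes tested was -0.10 after the median ratio, -0.64 on the deposited scale and 0.03 after quantile normalization. Genes higher and lower in light accordingly numbered 45 and 635 on the deposited scale (5.34% called), 111 and 86 after quantile normalization (1.55%), 53 and 98 with edgeR (1.18%), and 223 and 243 with DESeq2 (4.16%). Leaving out control 1 gave 32 and 18, control 2 gave 78 and 35, and control 3 gave 251 and 196. A core of 37 genes, 27 higher and 10 lower in light, was called whichever of the 9 libraries was left out.

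The largest rise was that of Epas1, which encodes HIF-2 alpha, a hypoxia-inducible transcription factor. Epas1 read 0.946, 1.03 and 3.71 in the 3 control blastocysts, and from 179 to 397 in light blastocysts with a median of 255. The log2 fold change was 6.66 ± 0.39 (SE, limma adjusted p = 1.21e-09), and it held without each of the 9 libraries. The 3 controls held 16 Epas1 reads in all, too few to rank them. Control 3, whose summed trophectoderm markers lay within the light range, read 3.71 in Epas1, against 179 in the lowest light library. Whether the lineage of the picked cells bears on Epas1 was not tested. By limma, 3.85% of the HIF factors and hypoxia targets tested were called, where 2.19% of all genes tested were called. Of 26 HIF factors and hypoxia targets tested, Epas1 was the sole call by limma and by edgeR, whereas DESeq2 called 1 higher and 1 lower, the deposited scale gave 1 higher and 2 lower, and limma without control 3 gave 3 higher. The median of the list was -0.01 (-0.59 on the deposited scale). Bnip3, a mitophagy receptor induced by hypoxia, read 15.6, 128 and 117 in control and 131 to 187 in light blastocysts (1.23 ± 0.47, adjusted p = 0.181). Ndrg1, another hypoxia target, read 26.0 and 54.7 in controls 1 and 2 and 1080.0 in control 3, above the highest light library at 469. Slc2a3, a glucose transporter, overlapped between the groups at 38.8 to 248 in control and 60.9 to 299.9 in light.

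Besides imprinted genes, described next, 5 further genes led the rises and kept their calls whichever library was left out. Mbnl2, a splicing regulator, had 0 reads in the controls and 456 in the light libraries, with normalized values of 16.4 to 54.0. Set against 3 reads over the control group, it was at least 101-fold higher in light. Anxa8, a membrane-binding annexin, also had 0 control reads and was at least 73.8-fold higher, with 11.2 to 44.2 in light libraries. Fkbp6, an immunophilin of germ cells, read 0, 1.03 and 0 in control and 20.3 to 66.8 in light (4.98 ± 0.57, adjusted p = 6.2e-05). Lncenc1, a noncoding RNA first described in embryonic stem cells, read 7.57, 0.619 and 0 in control and 49.7 to 69.8 in light (4.65 ± 0.57, adjusted p = 9.64e-05). Parva, an actin-binding partner of integrin-linked kinase at adhesions, read 0, 2.68 and 0 in control and 8.21 to 57.2 in light (3.99 ± 0.71, adjusted p = 0.00701). No value of these 5 genes in a light library fell into the control range.

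**Figure D2:**
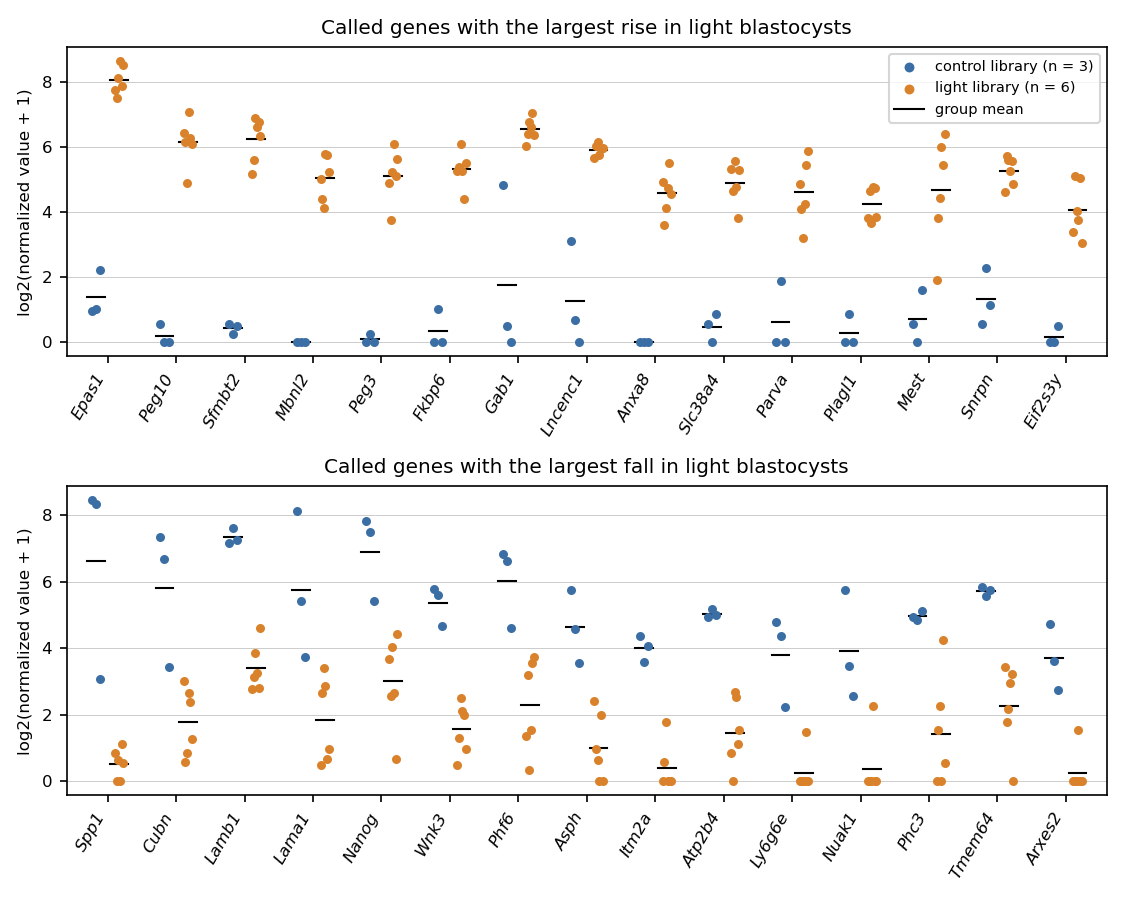
Normalized values on a log2 scale in each library for the 15 called genes with the largest rise (top) and the 15 with the largest fall (bottom) whose groups do not overlap, with the group mean as a bar. Epas1 lies between 179 and 397 in light libraries against at most 3.71 in control, and Lamb1 between 143 and 195 in control against at most 23.6 in light, while Spp1 reads 7.43 in control 3 and at least 325 in the other controls.

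Imprinted genes expressed from the paternal copy were among the largest rises. Of 26 listed, 24 were in the table and 14 passed the filter, which keeps genes that are high in the light group alone, so their count is a description. Of the 14, 7 (50%) were called higher in light and 0 lower, where 0.997% of all genes tested were called higher. Their median log2 fold change was 3.09, where all genes tested had -0.10. The list summed to 17.3 to 126 in control and 274 to 505 in light libraries. The 7 were Peg10, Sfmbt2, Peg3, Slc38a4, Plagl1, Mest and Snrpn, on 5 chromosomes. Without control 1 or control 2 there were 6 calls and without control 3 there were 7, and edgeR called 7 and DESeq2 8 of the list higher.

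Peg10, a retrotransposon-derived gene needed for placenta, read 0.473, 0 and 0 in control blastocysts. In light blastocysts it read 28.5 to 133 with a median of 73.6. There was 1 read in control against 1008 in light, a ratio of 672 (95% counting interval 121 to 26550). The log2 fold change was 5.96 ± 0.53 (adjusted p = 1.02e-06), and the lowest light library lay far above the highest control. Sfmbt2, a Polycomb protein needed for trophoblast, read 0.473, 0.206 and 0.413 in control and 34.7 to 118 in light, with a median of 89.1. The reads were 3 against 1169, a ratio of 260 (95% counting interval 88.9 to 1260). Many microRNA genes lie within Sfmbt2 and their reads cannot be separated from it. Peg3, a zinc finger protein expressed in the embryo and the placenta, read 0, 0.206 and 0 in control and 12.7 to 66.97 in light, with a median of 35.1 (5.03 ± 0.62, adjusted p = 0.000104).

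Slc38a4, a neutral amino acid transporter of the placenta, read 0.473, 0 and 0.825 in control and 13.1 to 46.5 in light (4.43 ± 0.61, adjusted p = 0.000438). Plagl1, a zinc finger factor that restrains growth, read 0, 0.826 and 0 in control and 11.8 to 26.5 in light (3.96 ± 0.66, adjusted p = 0.00356). Snrpn, a spliceosomal protein gene of the Prader-Willi region, read 0.473, 3.92 and 1.24 in control and 23.3 to 52.1 in light (3.93 ± 0.55, adjusted p = 0.000438). These 3 and the 3 before them kept their calls whichever library was left out, and in each the groups did not overlap. Mest, a hydrolase-like protein that overlaps Copg2, read 0.473, 0 and 2.06 in control and 2.76 to 84.2 in light. Its call (3.95 ± 0.83, adjusted p = 0.0166) was lost without control 1, control 2 or light 24.

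Gab1 and Jade1, which with Sfmbt2 and Slc38a4 are known to be expressed from the paternal copy in trophoblast, were not on the list, and Jade1 was looked up after its values were seen. Gab1, an adaptor of receptor tyrosine kinases, read 27.4, 0.413 and 0 in control and 63.9 to 131 in light (4.76 ± 0.71, adjusted p = 0.000998). The call held without each library in limma, whereas edgeR gave an adjusted p of 0.0687 and DESeq2 0.103, with control 1 far above the other controls. Jade1, a subunit of a histone acetyltransferase complex, read 7.57, 2.27 and 0.413 in control and 18.8 to 64.8 in light (3.22 ± 0.61, adjusted p = 0.0104). The groups did not overlap for either.

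Other paternally expressed genes were not called by limma. Mcts2 read 0 in 2 controls and 0.413 in control 3, and 0.964 to 14.6 in light, without overlap and without a call (2.25 ± 0.71, adjusted p = 0.0992). Kcnq1ot1, the noncoding RNA of the Kcnq1 domain, read 22.2, 0.206 and 0.825 in control and 0.9746 to 43.6 in light. Igf2, the fetal growth factor, read 5.67, 0.826 and 74.7 in control against 4.33 to 24.4 in light, so that control 3 was the highest library. Inpp5f read 7.57, 2.89 and 26.0 in control and 0 to 18.3 in light. The groups overlapped for these last 3 genes.

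Imprinted genes expressed from the maternal copy did not share a direction. Of 16 tested, 7 had a positive and 9 a negative fold change. Of these 16, 0 were called higher and 2 (12.5%) lower, where 1.19% of all genes tested were called lower. Their median was -0.15 (-0.76 on the deposited scale), where all genes tested had -0.10 (-0.64). Igf2r, the receptor that clears IGF2, read 141, 110.05 and 94.9 in control and 16.2 to 69.2 in light (-1.86 ± 0.42, adjusted p = 0.0229). Airn, a paternally expressed noncoding RNA, overlaps Igf2r on the other strand, and a protocol without strand cannot separate their reads. Meg3, a noncoding RNA, read 49.6, 24.6 and 3.71 in control and 0 to 2.89 in light (-3.21 ± 0.81, adjusted p = 0.0411). Both calls were lost without control 1 or control 2, that of Igf2r also without light 26, and that of Meg3 also without each light library. Gnas, the stimulatory G protein subunit, read 40.2 to 77.1 in control and 36.1 to 167 in light, and Nap1l4, a histone chaperone, 43.4 to 82.3 and 38.0 to 85.4, with overlap in both. Other members lay higher in light without a call. Phlda2 read 0.473, 0.206 and 0 in control and 0.481 to 103 in light, without overlap (2.50 ± 0.98, adjusted p = 0.201). The groups overlapped for Ascl2 (2.56 ± 0.80, adjusted p = 0.0957) and Cd81 (1.92 ± 0.98, adjusted p = 0.353).

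**Figure D3:**
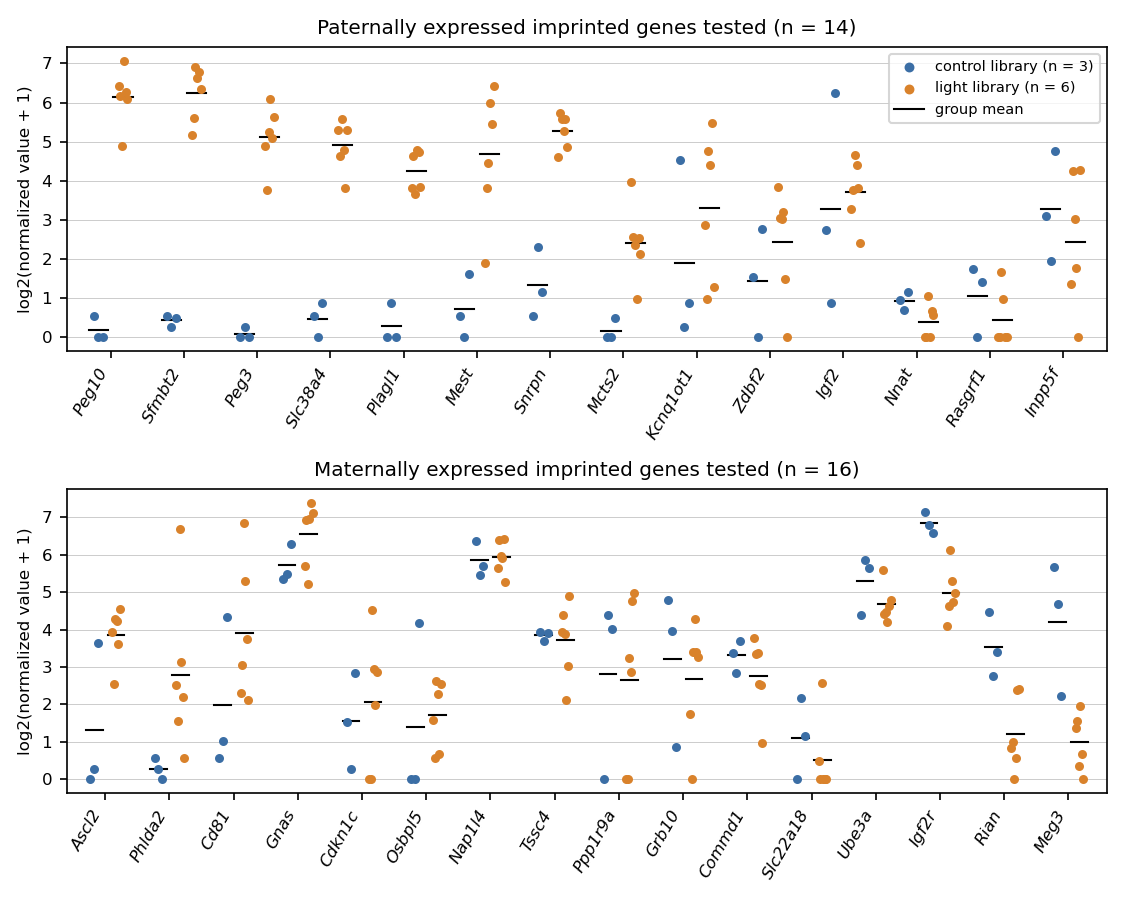
Normalized values on a log2 scale in each library for the imprinted genes tested, ordered by fold change, with the group mean as a bar. For Peg10, Sfmbt2, Peg3, Slc38a4, Plagl1, Mest and Snrpn, at the left of the top panel, every light library lies above the 3 controls, and for most maternally expressed genes the groups overlap.

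Sex chromosome genes also separated the groups. The 7 Y-linked genes measured summed to 0.206 to 0.473 in control and 17.8 to 69.3 in light libraries, so Y-linked RNA was at or near 0 in each control and present in each light library. Eif2s3y, a translation initiation factor gene on the Y, read 0, 0 and 0.413 in control and 7.21 to 33.6 in light (3.90 ± 0.71, adjusted p = 0.00815). Its reads were 1 in control and 244 in light, a ratio of 163 (95% counting interval 29.2 to 6427). Ddx3y, a Y-linked RNA helicase, read 0, 0.206 and 0 in control and 0.789 to 32.3 in light (3.75 ± 0.84, adjusted p = 0.0229), a call lost without control 1, control 2, light 24 or light 26. Kdm5d, at 52 reads, and Uty, at 70, had 0 control reads and were at least 11.6-fold and 15.6-fold higher in light over the group, without a call by limma or edgeR. DESeq2 called both (adjusted p = 0.0499 and 0.02).

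X-linked genes leaned lower in light, with a fold change below 0 for 350 of 413 tested. Of the 413, 43 (10.4%) were called lower in light and 0 higher, where 1.19% of all genes tested were called lower. The median fold change of X-linked genes was -0.91, against -0.08 over 12257 autosomal genes and -0.17 to 0.01 over the 19 autosomes taken singly. X-linked genes made up 28.3% of the genes called lower and 3.24% of the genes tested. The offset from the autosomes was of like size on the deposited scale, with medians of -1.46 and -0.62, and after quantile normalization, with -0.83 and 0.05. Without control 1, 2 or 3 the X-linked median was -0.98, -0.90 and -0.85, and the X-linked calls lower in light were 10, 15 and 37. Wnk3, a kinase that regulates ion transport, read 54.4, 47.7 and 24.3 in control and 0.395 to 4.65 in light (-3.79 ± 0.70, adjusted p = 0.00913). Phf6, a chromatin protein, read 113, 97.5 and 23.5 in control and 0.274 to 12.5 in light (-3.72 ± 0.78, adjusted p = 0.0158). Itm2a, a membrane protein, read 19.9, 10.9 and 15.7 in control and 0 to 2.46 in light (-3.61 ± 0.67, adjusted p = 0.00913), a call held without each library. Arxes2, a gene with a near copy between which reads may be shared, read 25.5, 11.4 and 5.78 in control and 0 to 1.93 in light. No light library reached the lowest control for these 4 genes. The calls of Wnk3 and Arxes2 were lost without control 1, and that of Phf6 without control 1 or control 2.

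The groups overlapped in Xist. It read 24.1, 14.5 and 358 in controls 1, 2 and 3, and 181 in light 13, 173 in light 15 and 7.71 to 24.6 in the other light libraries (-0.57 ± 0.92, adjusted p = 0.819). Xist was high in 1 control and in 2 light libraries, the latter with Y-linked RNA. Tsix runs antisense to Xist and read 66.4 in control 3 against 0.473 and 4.34 in controls 1 and 2, and reads of the pair cannot be told apart without strand.

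**Figure D4:**
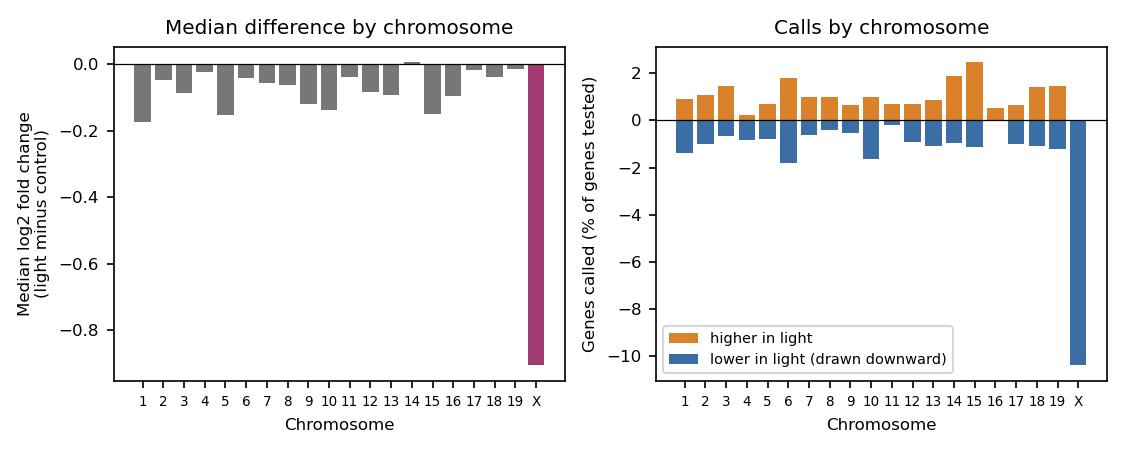
Median log2 fold change of the genes tested on each chromosome (left) and the percentage called higher or lower in light (right). The X stands at -0.91 with 10.4% of its genes called lower and 0 called higher, while autosomal medians lie between -0.17 and 0.01 on the median ratio scale.

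Among the genes that fell furthest were markers of inner cell mass and primitive endoderm, basement membrane genes and X-linked genes, beside others of none of these classes. Of 17 inner cell mass and epiblast markers tested, 3 were called lower and 0 higher, with a median of -2.32, where 1.19% of all genes tested were called lower. The lower calls of this list were 7 with edgeR, 8 with DESeq2 and 9 on the deposited scale. Nanog, the epiblast factor, read 225, 179 and 42.1 in control and 0.597 to 20.7 in light (-3.90 ± 0.71, adjusted p = 0.00815). The groups did not overlap, yet the call was lost without control 1. Spp1, the secreted protein osteopontin, read 352, 325 and 7.43 in control and 0 to 1.19 in light (-6.10 ± 0.95, adjusted p = 0.00175). Without 1 of controls 1, 2 or 3, Spp1 had too few high values to pass the filter. Upp1, a uridine phosphorylase, read 229.8, 95.8 and 4.95 in control and 0 to 5.20 in light (-4.48 ± 0.97, adjusted p = 0.0201), with control 3 inside the light range, and its call was lost without control 1 or control 2. Tdgf1, the Nodal coreceptor, showed the same order at 579.7, 186 and 3.30 in control and 1.93 to 11.9 in light. It missed the threshold in limma (-3.60 ± 0.99, adjusted p = 0.059) and was called lower by edgeR (adjusted p = 0.00174), by DESeq2 (adjusted p = 0.000208) and on the deposited scale (adjusted p = 0.0168).

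Not all markers of this lineage followed. Pou5f1, the pluripotency factor Oct4, read 459, 237 and 127 in control and 105 to 206 in light (-0.57 ± 0.36, adjusted p = 0.469). Sall4 read 85.1 to 209 in control and 96.5 to 193 in light, and Dppa5a, an RNA-binding protein of pluripotent cells, 327 to 620.4 and 457 to 1075. The groups overlapped for all 3. The median of the list was -1.25 without control 1, -1.78 without control 2 and -3.29 without control 3, and its calls lower in light were 0, 1 and 10.

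Some laminin genes lay lower in light than in each of the 3 controls. Of 31 basement membrane and collagen-processing genes tested, 5 (16.1%) were called lower and 0 higher, where 1.19% of all genes tested were called lower. The list median was -1.47 (-1.99 on the deposited scale), where all genes tested had -0.10 (-0.64). Without controls 1, 2 and 3 the calls were 2, 2 and 7. Lamb1, the beta 1 chain of laminin, read 143, 195 and 152 in control and 5.92 to 23.6 in light with a median of 8.23. Its log2 fold change of -3.93 ± 0.47 (adjusted p = 9.63e-05) held without each library, and control 3 was as high as controls 1 and 2. Nid1, nidogen, which links laminin to collagen IV, read 259, 129.7 and 278 in control and 21.7 to 78.4 in light (-2.48 ± 0.40, adjusted p = 0.00214). This call also held without each library, and the control closest to the light range was control 2. Lama5, the alpha 5 chain of laminin, read 404, 631 and 310 in control and 93.0 to 226 in light (-1.49 ± 0.33, adjusted p = 0.0228), a call lost without control 1, control 2 or light 24.

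Others of these genes followed the marker split of the controls. Lama1, the alpha 1 chain, read 281, 42.1 and 12.4 in control and 0.395 to 9.58 in light (-3.93 ± 0.89, adjusted p = 0.0245). Fn1, fibronectin, read 465, 273 and 4.54 in control and 0.597 to 11.1 in light, with control 3 inside the light range (-3.89 ± 0.99, adjusted p = 0.0438), and it overlaps Apol7d. Cubn, the endocytic receptor cubilin, read 161, 102 and 9.90 in control and 0.487 to 7.11 in light (-4.03 ± 0.83, adjusted p = 0.015). The calls of these 3 were lost without control 1 or control 2, that of Lama1 also without light 26, and that of Fn1 also without each light library. Of 18 primitive endoderm markers tested, Lama1, Lamb1 and Cubn were lower and Dab2 was higher. These calls were 22.2% of the list, where 2.19% of all genes tested were called. The list median of -1.54 became -0.53 without control 1.

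Among the other large falls, several genes were even across the 3 controls. Atp2b4, a plasma membrane calcium pump, read 29.8, 35.7 and 30.9 in control and 0 to 5.47 in light (-3.59 ± 0.74, adjusted p = 0.015). Tmem64, a transmembrane protein that regulates calcium, read 56.7, 46.3 and 53.6 in control and 0 to 9.87 in light (-3.46 ± 0.72, adjusted p = 0.015). Both calls were lost without control 1 or control 2, which leaves 2 controls. Phc3, a Polycomb subunit, read 27.9 to 33.8 in control and 0 to 17.9 in light, and kept its call on leaving out 2 of the 9 libraries and lost it for the other 7. Nuak1, an AMPK-related kinase, was uneven at 52.96, 10.1 and 4.95 in control, and read 0 in 5 light libraries and 3.85 in the other. Asph, a hydroxylase that overlaps Clvs1, read 10.7 to 53.4 in control and 0 to 4.34 in light, and Ly6g6e, which overlaps Ly6g6d, 3.71 to 27.0 and 0 to 1.79. The calls of Nuak1, Asph and Ly6g6e were lost without control 1, and that of Asph also without control 2.

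In sum, trophectoderm markers lay higher in each light library than in controls 1 and 2, though not each gene did. Cldn4, for example, read 94.6 and 420 in controls 1 and 2 and 171 to 961 in light. Of 20 trophectoderm markers tested, 3 (15%) were called higher and 0 lower, where 0.997% of all genes tested were called higher. The median was 1.52 (0.86 on the deposited scale), which became 0.65 without control 1 and 2.18 without control 3. The calls higher in light were then 1 and 11. Krt8, a keratin of this epithelium, read 231, 883 and 1822 in control and 2064 to 3006 in light (1.68 ± 0.42, adjusted p = 0.0411), a call lost on leaving out any of 8 libraries. Krt7, another keratin, read 0, 21.9 and 28.1 in control and 56.4 to 105 in light (3.19 ± 0.70, adjusted p = 0.0217), a call lost without control 1, light 24 or light 26. Lgals3, galectin-3, read 2.36, 0.206 and 1.65 in control and 7.23 to 27.8 in light (3.01 ± 0.66, adjusted p = 0.0217), a call lost without control 2. Control 3 was thus below every light library in these 3 genes in spite of its trophectoderm sum. Krt19 had 0 control reads against 112 in light and was at least 24.9-fold higher over the group. It missed the threshold in limma (adjusted p = 0.0671) and was called by edgeR (adjusted p = 0.0473) and DESeq2 (adjusted p = 0.000703).

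Transcription factors of the trophectoderm were not called. Cdx2, which specifies this lineage, read 7.09, 99.3 and 126 in control and 131 to 254 in light (2.05 ± 0.58, adjusted p = 0.0651). Gata3 read 36.4, 147 and 571 in control and 392 to 559.7 in light, so control 3 exceeded the light group. Eomes, needed for trophoblast growth, read 32.6, 76.6 and 408 in control and 39.4 to 274 in light. Dab2, an endocytic adaptor of primitive endoderm that trophectoderm also expresses, read 12.3, 163 and 135 in control and 238 to 373 in light (2.14 ± 0.52, adjusted p = 0.0368), a call that held without control 2 or control 3 and in no other reduced set.

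Fluid transport and junction genes, which the trophectoderm uses to fill the cavity, had 26 members tested. Atp1b1, the beta subunit of the sodium pump, read 71.4 to 94.98 in control and 26.0 to 117 in light, and Aqp3, a water channel, 28.4 to 91.6 and 29.7 to 172, with overlap in both. The list median was 0.11, and -0.54 on the deposited scale. Of 34 genes of cell adhesion and spreading tested, Parva was the sole call, where 2.19% of all genes tested were called. The median of this list was 0.14 (-0.46 on the deposited scale).

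Metallothioneins and glutathione enzymes were higher in light blastocysts. Of 35 antioxidant genes tested, 6 (17.1%) were called higher and 0 lower, where 0.997% of all genes tested were called higher. The groups did not overlap, with light higher, for 11 of the 35, where this held for 3.01% of all genes tested. The list median was 0.62, and 0.002 on the deposited scale, where 1 was called. The summed normalized value was 1977 to 2782 in control and 4151 to 8021 in light. Mt1, which binds zinc and copper, read 26.0, 467 and 290.4 in control and 506 to 2566 in light with a median of 1088 (2.93 ± 0.61, adjusted p = 0.0166). Mt2, its neighbour on chromosome 8, read 13.7, 283 and 174 in control and 369 to 1411 in light with a median of 537 (2.83 ± 0.62, adjusted p = 0.0212). Control 1 was the lowest library for both, the groups did not overlap, and both calls were lost without control 1. Selenow, a small selenoprotein, read 18.9, 52.9 and 54.0 in control and 133 to 359 in light (2.41 ± 0.38, adjusted p = 0.00188), and this call held without each library.

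The other 3 calls were smaller. Gsto1, a glutathione transferase that overlaps Cfap43, read 227 to 385 in control and 622 to 1037 in light (1.39 ± 0.27, adjusted p = 0.011). Gstp1, a glutathione transferase with near copies, read 59.1 to 97.0 in control and 167 to 289 in light (1.42 ± 0.30, adjusted p = 0.0185). Gpx4, which reduces lipid peroxides, was called higher as well (1.34 ± 0.33, adjusted p = 0.0411), with means of 80.2 ± 23.3 (SD, n = 3) in control and 209 ± 78.6 (SD, n = 6) in light. Sod2, the mitochondrial superoxide dismutase, read 269.9 to 399 in control and 254 to 563 in light, and was not called (0.19 ± 0.30, adjusted p = 0.812). Calls of the list numbered 1, 5 and 9 without controls 1, 2 and 3. Those of Gsto1, Gstp1 and Gpx4 were lost without control 1.

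Mt1 and Mt2 rose together and lie side by side, and both are known to be switched on through metal response elements near their starts, so their RefSeq promoter windows are shown. Each runs from 250 bases before to 50 after the start on the plus strand of GRCm38.p6, at chr8:94172368-94172667 for Mt2 and chr8:94178839-94179138 for Mt1. Capitals mark TGCACNC or TGCGCNC, the core of the element, on either strand.
Mt2: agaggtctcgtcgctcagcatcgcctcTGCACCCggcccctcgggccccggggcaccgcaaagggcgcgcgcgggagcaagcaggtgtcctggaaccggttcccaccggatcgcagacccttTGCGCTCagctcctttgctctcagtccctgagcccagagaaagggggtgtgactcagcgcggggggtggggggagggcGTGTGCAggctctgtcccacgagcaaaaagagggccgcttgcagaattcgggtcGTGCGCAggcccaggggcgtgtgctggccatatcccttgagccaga
Mt1: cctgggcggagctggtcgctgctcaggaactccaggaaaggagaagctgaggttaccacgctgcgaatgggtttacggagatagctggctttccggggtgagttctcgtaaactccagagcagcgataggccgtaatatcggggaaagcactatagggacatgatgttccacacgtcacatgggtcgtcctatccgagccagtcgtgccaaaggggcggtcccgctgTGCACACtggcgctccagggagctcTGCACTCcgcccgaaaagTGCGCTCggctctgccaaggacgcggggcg
Mt2 held 4 matches and Mt1 held 3, none overlapping another, where 25.7% of 32851 windows of this length held at least 1. A window held at least 4 matches in 0.517% and at least 3 in 1.97% of cases. A match describes the letters and says nothing of binding in these cells.

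Of 20 glycolysis genes tested, 2 (10.0%) were called higher, where 0.997% of all genes tested were. Light was higher without overlap for 4, where this held for 3.01% of all genes tested. By edgeR 0 and by DESeq2 2 were called. The median was 0.24 (-0.42 on the deposited scale, where 0 were called). Tpi1, triosephosphate isomerase, read 9.93, 7.43 and 65.2 in control and 67.5 to 176 in light (2.60 ± 0.51, adjusted p = 0.0115), and it overlaps Spsb2. Eno1, enolase, read 40.2, 79.5 and 99.0 in control and 133 to 260 in light (1.56 ± 0.33, adjusted p = 0.0171). Both calls were lost without control 1, and that of Tpi1 also without control 2. Gapdh read 304 to 357 in control and 373 to 906 in light, without overlap and without a call (adjusted p = 0.1). Of 79 nuclear genes of oxidative phosphorylation tested, Atp5g2, a subunit of the ATP synthase ring, was the sole call by limma, lost without control 1, light 24 or light 26. edgeR called 0 and DESeq2 5 of the list higher. A total of 70 had a positive fold change and the median was 0.74 (0.09 on the deposited scale). The summed value of this list was highest in light 13 and 15, at 9871 and 9356, against 4460 to 5346 in control and 5469 to 5886 in the other light libraries. The 12 mitochondrially encoded protein genes tested had 0 calls by limma (1 at an unadjusted p under 0.05 and 0 by edgeR or DESeq2) and a median of -0.15.

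Light 13 and 15 also stood apart in cytosolic ribosomal proteins, whose sum was 20320 and 16159 in these 2 libraries and 7487 to 9714 in the other 7. Of 84 tested, Rps26, a gene with near copies, was called (1.61 ± 0.41, adjusted p = 0.0438), and the groups overlapped. edgeR and DESeq2 called 0 of this list. Mitochondrial ribosomal proteins gave 1 call of 76, Mrps21 (2.09 ± 0.54, adjusted p = 0.0438; 0 by edgeR and 1 by DESeq2), and the proteasome 0 of 37 (3 at an unadjusted p under 0.05, 0 by edgeR and 1 lower by DESeq2). The calls of Rps26 and Mrps21 were each lost in 7 of the 9 sets with a library left out, among them those without control 1. The medians of the 3 lists were 0.48, 0.36 and 0.29, and each was below 0 on the deposited scale, at -0.16, -0.27 and -0.38.

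Of 38 cyclins and cell cycle genes tested, 4 (10.5%) were called higher, where 0.997% of all genes tested were. The median was 0.18 (-0.44 on the deposited scale, where 0 were called higher and 1 lower). Aurka, a mitotic kinase, read 87.5, 41.3 and 57.3 in control and 124 to 280.2 in light (1.44 ± 0.34, adjusted p = 0.0286). Cdc20, which activates the anaphase-promoting complex and overlaps Elovl1, read 51.8 to 83.3 in control and 130.1 to 226 in light (1.29 ± 0.30, adjusted p = 0.0295). Ccnb1, the mitotic cyclin B1, read 100.2 to 190.2 in control and 253 to 443 in light (1.18 ± 0.30, adjusted p = 0.0443). Cdkn1a, the p53 target p21 that halts the cycle, read 20.8, 20.0 and 35.1 in control and 51.4 to 92.8 in light (1.48 ± 0.36, adjusted p = 0.0368). The groups did not overlap for these 4. Light was higher without overlap for 6 of the list, where this held for 3.01% of all genes tested. Each of the 4 calls was lost without control 2, those of Cdc20, Ccnb1 and Cdkn1a also without control 1. edgeR called 0 and DESeq2 4 of the cell cycle list higher.

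Injury-response lists gave few or no calls, where 2.19% of all genes tested were called by limma. In lists of this size, counts of 0 or 1 lie near that share, and no result about these genes is drawn from them. Of 28 p53 targets tested Cdkn1a was the sole call by limma, while edgeR called 0 and DESeq2 3 higher, and the median was 0.20 (-0.34 on the deposited scale). Sfn, 14-3-3 sigma, read 229 to 372 in control and 328 to 571 in light, and Ccng1, cyclin G1, 42.1 to 144 and 85.7 to 263, with overlap in both. By limma, apoptosis genes gave 0 calls of 33 (7 at an unadjusted p under 0.05, 0 by edgeR and 3 higher by DESeq2). DNA damage and repair genes gave 0 of 58 (6 unadjusted, 0 by edgeR and 1 lower by DESeq2), and heat shock and unfolded protein response genes 0 of 32 (8 unadjusted, 0 by either tool). For 3 genes of each of these last 3 lists the groups did not overlap, where this held for 7.92% of all genes tested. Cycs, cytochrome c, was among them at 25.1 to 50.3 in control and 63.5 to 153 in light (1.21 ± 0.37, limma adjusted p = 0.0907, DESeq2 adjusted p = 0.044). Hsp90aa1, a cytosolic chaperone, read 1652 to 2009.8 in control and 747 to 1588 in light (-0.71 ± 0.29, adjusted p = 0.233). With 3 controls that differed from each other, small differences in these lists were not detectable.

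Transporters, lipid genes and signalling lists completed the survey, to be read beside the 2.19% of all genes tested that limma called. Of 23 amino acid, nucleoside and taurine transporters tested, Slc38a4 and Slc38a1 were higher and Slc1a1, a glutamate transporter, was lower at 64.6 to 107 in control and 16.4 to 40.9 in light (-1.75 ± 0.41, adjusted p = 0.0307). The median of the list was -0.90. The calls of Slc38a1 and Slc1a1 were lost without control 1, 2 or 3. Fdft1, squalene synthase, which overlaps Ctsb, was the sole call of 22 cholesterol synthesis genes by limma and the count was also 1 with DESeq2 and 0 with edgeR (1.54 ± 0.39, limma adjusted p = 0.0414). The groups overlapped, and the call was lost without control 1 or control 3 and in 5 of the 6 sets without a light library. Fatty acid synthesis and storage gave 0 calls of 23 by limma (4 at an unadjusted p under 0.05, 0 by edgeR and 1 lower by DESeq2), with 18 below 0 and a median of -0.83. Tet1, a DNA demethylase, was the sole call of 18 DNA methylation genes by limma, at 519, 246 and 49.5 in control and 26.3 to 73.1 in light (-2.005 ± 0.52, adjusted p = 0.0443), with control 3 inside the light range. That call was lost without control 1, control 2 or any light library, and the lower calls of the list were 1 with edgeR, 2 with DESeq2 and 4 on the deposited scale. By limma, calls were 0 of 24 for FGF and ERK signalling (2 at an unadjusted p under 0.05, 1 lower by edgeR and 1 lower by DESeq2). They were 0 of 22 for the Hippo pathway (6 unadjusted, 0 by edgeR and 1 higher by DESeq2) and 0 of 13 for oocyte maternal genes (0 unadjusted and 0 by either tool).

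The difference between light and control was then compared with that at the morula stage, in 13 control and 6 light morulae, by an interaction term in limma over the 28 libraries of both stages. Of 16855 genes tested, 320 (1.90%) were called, 105 with a higher and 215 with a lower difference in blastocysts, and 155 were called without control 1. The control blastocysts enter both this term and the comparison above, so its calls are no independent support for those. Light against control within morulae gave 388 calls (2.30%). The 28 libraries were scaled together, and the levels of both stages in this comparison are on that scale. In the 13 control morulae Ddx3y, Kdm5d and Uty read 0, and Eif2s3y at most 0.422. In the 6 light morulae each of these Y-linked genes had a median of 0, and they reached 28.4, 10.2, 4.55 and 33.0 in that order. The sex of the morulae is not given, so it was not separated from light at that stage either.

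Epas1 had a mean of 276 ± 155 (SD, n = 13) in control morulae and 305 ± 155 (SD, n = 6) in light morulae (0.23 ± 0.40, adjusted p = 0.818), where light blastocysts had 243 to 543 and control blastocysts 1.25 to 5.32. The term for Epas1 was 6.59 ± 0.63 (adjusted p = 3.55e-08), and the lowest control morula, at 81.1, was above every control blastocyst. Snrpn likewise read 7.97 to 59.5 in control and 40.2 to 105 in light morulae, and at most 5.19 in control blastocysts (term 3.23 ± 0.68, adjusted p = 0.00601). Gab1 read 15.9 to 109.8 in control and 23.5 to 91.7 in light morulae (term 5.24 ± 0.84, adjusted p = 0.00034), and Lncenc1 0 to 80.03 and 0 to 55.7 (term 6.53 ± 1.28, adjusted p = 0.00299). The morula groups overlapped for these 4 genes.

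Peg10 and Plagl1 followed another course. Peg10 was at most 2.66 in control and 0.587 in light morulae, and Plagl1 at most 0.665 and 0.361, and in control blastocysts they were at most 0.6246 and 1.09. Light blastocysts read 38.8 to 182 for Peg10 and 16.0 to 36.3 for Plagl1, above every library of the other 3 groups. The terms were 6.39 ± 0.75 (adjusted p = 2.81e-06) and 4.35 ± 0.61 (adjusted p = 6.73e-05). Peg3 read 0 to 35.1 in control and 0 to 45.8 in light morulae (term 5.77 ± 1.38, adjusted p = 0.0186). For Sfmbt2 and Slc38a4 the terms of 4.77 ± 1.40 and 4.36 ± 1.39 missed the threshold (adjusted p = 0.0694 and 0.101). Of the falls, Spp1 was 0 in every control morula and at most 4.33 in light morulae (term -7.07 ± 0.89, adjusted p = 1.21e-05), and Lama1 was 0 and at most 1.02 (term -4.31 ± 0.86, adjusted p = 0.00387). Lamb1 had already lower means in light than control morulae, 27.9 ± 19.1 (SD, n = 6) against 51.3 ± 33.4 (SD, n = 13), without a call (adjusted p = 0.394), and its term missed the threshold (-2.90 ± 0.93, adjusted p = 0.102). Nanog showed a like order in morulae, with means of 6.95 in light and 67.04 in control (-2.81 ± 0.83, adjusted p = 0.0742; term -1.16 ± 1.29, adjusted p = 0.732).

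**Figure D5:**
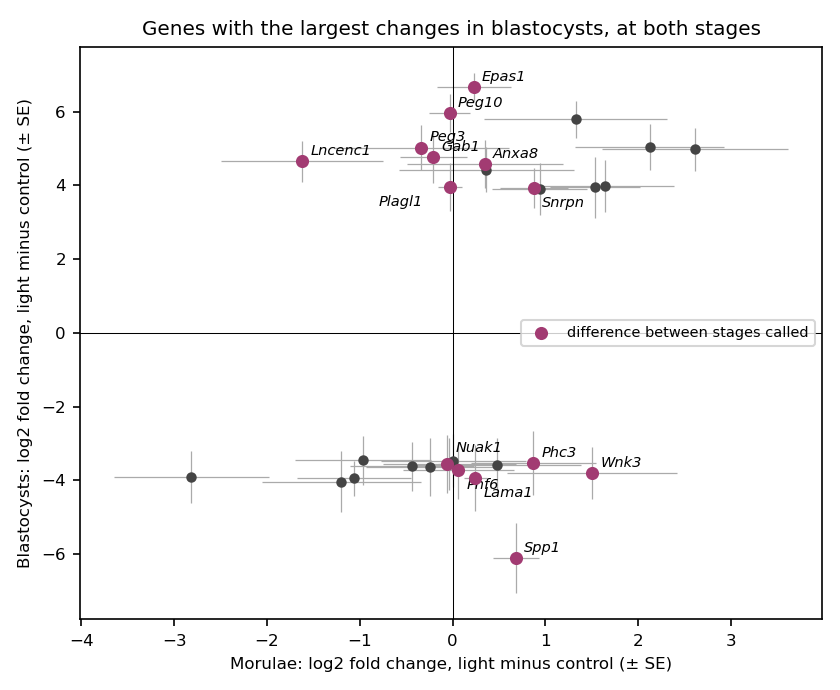
Log2 fold change, light minus control, of the 30 genes with the largest changes in blastocysts (vertical) against that in morulae (horizontal), each with its SE. Purple points are genes whose difference between the stages was called, among them Epas1 at 6.66 in blastocysts and 0.23 in morulae and Spp1 at -6.10 and 0.68.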

How the data were processed

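Libraries were made with SMART-seq2. The authors deposited signal values, made by dividing the reads of each gene by the size factor of its library. Per the labels, the submitters' processing notes name HISAT2, HTSeq 0.9.1 and mm9, without roles, and the paper's methods describe RPKM, but the values were not divided by length. Multiplied by that factor, at least 99.95% of the values of a library came out whole within 0.01, and count tests on these reads were alternatives: edgeR called 151 and DESeq2 466 genes. The deposited size factors rest on 3 genes, CT010467.1, Gm42418 and Slc6a6, so libraries were divided instead by their median ratio to the geometric mean library over the 8180 genes above 0 in all 9. The table holds 26414 genes by symbol, of which 24 had been turned into dates, and 26329 (99.7%) were found in GENCODE M21 (GRCm38), used for chromosomes and overlaps and not for coordinates, since the builds differ. In 8 genes some of the 9 libraries held a value that was not whole.

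Genes with a deposited value above 1 in at least 3 libraries were tested with limma 3.58.1 (trend) in R 4.3.3 on log2(value + 1), with Benjamini-Hochberg adjustment over all genes tested. A gene was called at adjusted p under 0.05 and fold change of at least 2, as in the paper's thresholds. The interaction with morulae used the same steps over 28 libraries, scaled over 4449 genes. Single values per library were tested by exact permutation over 84 regroupings. Python 3.11.15, numpy 2.4.6, pandas 2.3.3, scipy 1.17.1, matplotlib 3.10.9, edgeR 4.0.16 and DESeq2 1.42.0 were used. No library repeated another: the most similar pair had a chi-square of 19.9 for each degree of freedom in control and 8.98 in light.

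Genes named are up to 15 rises and 15 falls with the largest change among called genes without overlap between the groups and with a mean of 10 or more in a group, predicted symbols left out, all cell type markers, Y-linked genes and Xist. From each other list up to 5 called members and the 3 most abundant others were named, and up to 3 interaction genes in each direction. Gpx4, Mcts2, Phlda2, Cd81, Tsix and Jade1, and the metal response motif, were chosen after values were seen. The members and the 31 lists were chosen with earlier results of these data known. Folds against a group with 0 reads use 3 reads over that group as a floor, and ratios with 1 to 3 reads carry 95% exact counting intervals. The counts of GATA, TEAD and HIF motifs planned for the promoters of called genes are void and were left out, since promoter windows matched 75.6% of genes called higher and 67.1% of those called lower. Promoter windows of Epas1 and Peg10 were not used here. The fits were tested on simulated data first. The result for a single gene is not reported here.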

Additional observations from a re-analysis of the deposited data

Results flagged for a closer look

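The difference between light and control in blastocysts differed from that in morulae, by the limma interaction term, for 26 genes named here. The term is a log2 difference of differences. It was positive for Epas1 (6.59), Lncenc1 (6.53), Peg10 (6.39), Peg3 (5.77), Gab1 (5.24), Anxa8 (4.65), Plagl1 (4.35), the keratin Krt19 (3.59), Mrps21 (3.25), Snrpn (3.23), Selenow (3.16), Mt1 (2.71), Rps26 (2.12), Dppa5a (2.11), Atp5g2 (2.11), Gsto1 (1.499) and Gm42418 (1.27), which is at the ribosomal RNA locus. It was negative for Spp1 (-7.07), Slc25a40, a mitochondrial glutathione carrier (-5.51), Wnk3 (-5.43), Upp1 (-4.86), Phc3 (-4.61), Lama1 (-4.31), Phf6 (-3.90), Nuak1 (-3.84) and Slc1a1 (-2.17). For Dppa5a the light morulae were below the control morulae (317 ± 153, SD, n = 6, against 796 ± 182, SD, n = 13; adjusted p = 0.00374), while the blastocyst groups overlapped. Mrps21 was likewise lower in light morulae (24.1 ± 10.6, SD, n = 6, against 50.5 ± 14.0, SD, n = 13; adjusted p = 0.0333) and higher in light blastocysts. Rps26, Atp5g2 and Selenow were lower in the mean in light morulae without a call there.

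A light library lay far from the other 5, by Dixon's ratio, for 14 of 203 values examined, where chance gives about 1 in 20. Light 23 was the highest in Krt8 (3006), P4ha2, a collagen hydroxylase (38.9), Itm2a (2.46) and Fgf4 (2.19), the lowest in Ndrg1 (178), and had the highest ratio of Gm42418 to CT010467.1 reads (1.75). Light 24 was the highest in Nuak1 (3.85) and Arxes2 (1.93), light 26 in Ly6g6e (1.79), light 29 in Trim28, a corepressor (298), and light 13 in Etv5 (10.3). Light 15 was the highest in Sox2 (1.95) and the lowest in Tet2 (221), and light 13 was the lowest in Ddx3y (0.789).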

How the results depend on the processing

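Against 279 calls (127 higher and 152 lower in light), total, higher and lower calls were 680, 45 and 635 on the deposited scale, 132, 78 and 54 with a pseudocount of 0.1, 68, 35 and 33 with no filter, 507, 201 and 306 with library weights, 151, 53 and 98 with edgeR, 466, 223 and 243 with DESeq2, and 461, 165 and 296 in a fit over all 67 libraries. Lower calls were 86 after quantile normalization, 98 after scaling by the total reads outside the rRNA locus and 80 with a mean above 5, with totals within 1.5 times of 279. Leaving out a library gave totals of 50 (control 1) to 447 (control 3), 32 to 251 higher and 18 to 196 lower, and control 2, light 23, 24, 26 and 29 moved the total over 1.5 times, to 113, 183, 122, 134 and 174. The share of calls that were lower was 54.5%, and 36.0% and 31.0% without control 1 and 2. The 61 named calls were recomputed on the deposited scale, after quantile normalization, with a pseudocount of 0.1, with edgeR, with DESeq2 and without each library, where 0 reversed; the other alternatives were run for the counts of calls. Those lost were 17 on the deposited scale, 19 with edgeR, 6 with DESeq2, 39 of 60 without control 1 and 26 of 60 without control 2. The cause was not tested. The interaction gave 320 calls, 193 with edgeR and 155 (without control 1) to 310 without 1 library. The difference in genes detected was -1091 to -777.5 without 1 library, with p = 0.0714 without control 3 and 0.0536 without light 26 (exact permutation tests). That in the rRNA share was 6.90 to 10.5 percentage points, with p = 0.0714 to 0.107 in 7 of 9 reduced sets. No paired analysis was possible because the blastocyst groups share no replicate number. Morulae share 4, whose deviations did not correlate (r between -0.066 and -0.005), and the interaction with the replicate block gave 315 calls. With 3 controls and 690022 reads outside the rRNA locus in the shallowest library, small differences and lowly expressed genes were not resolved.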
